A study of Mus musculus with 16 samples.

Results

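Tissue macrophage genes of the mouse stomach were followed through 16 bulk RNA-seq libraries. The genes were the 9 rows of the deposited count table with the symbols Csf1r, Adgre1, Cx3cr1, Itgam, Mrc1, Cd68, C1qa, C1qb and C1qc. They were matched by symbol, with no rule on their values, although the list was drawn up with earlier results of these data known. They make up 9 of the 24964 symbols in the table. All 9 passed the filter on low counts, as did 15385 symbols in all. The mice were 8-week-old females on the C57BL/6 background. They were either wild type (WT) or carried the TTPΔARE genotype on a congenic C57BL/6 background. TTP (tristetraprolin, gene symbol Zfp36) binds AU-rich elements in mRNA 3′ untranslated regions and promotes decay of those mRNAs, and the ΔARE allele lacks the AU-rich element in the TTP transcript itself. Each genotype was sampled in condition A, in which gastric inflammation was induced by adrenalectomy, and in condition S, whose treatment label names spasmolytic polypeptide-expressing metaplasia (SPEM) and does not spell out the operation. The 4 groups (WT-A, WT-S, TTP-A, TTP-S) held 4 libraries each. Each library was made from total RNA of a biopsy 4 mm wide, taken from the gastric corpus at its lesser curvature. The labels do not say how the biopsies of a group relate to one another, so p-values measure the spread between these libraries.

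Macrophages live in every tissue and take up debris, microbes and dying cells. They depend on signalling through the receptor CSF1R, whose ligands are CSF1 and IL34. F4/80 (Adgre1) is the surface protein most used to stain them in mice, CD68 is a protein of their endosomes and lysosomes, and the mannose receptor (Mrc1) binds glycans on ligands that are taken up. C1q, the recognition molecule that starts the classical complement cascade, is made largely by macrophages and is built from the chains encoded by C1qa, C1qb and C1qc. CX3CR1 is the receptor of fractalkine (Cx3cl1) and is carried by monocytes and many gut macrophages. Itgam encodes CD11b, the integrin chain that pairs with CD18 (Itgb2) on myeloid cells. Glucocorticoids from the adrenal gland restrain inflammation, and adrenalectomy removes that source. In whole tissue, a lower level from fewer cells of a type cannot be told apart from less RNA per cell.

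Library totals ran from 17453930 to 25849472 counts, and the 9 genes had 51 to 1517 counts in a library. Zfp36, the gene changed by the allele, was higher in both TTPΔARE groups, by a log2 fold change of 0.98 in condition S (adjusted p = 0.00044) and 0.77 in condition A (adjusted p = 0.00159, edgeR quasi-likelihood test). All 5 glucocorticoid-responsive genes on a checking list were called lower in condition A in both genotypes, although Sgk1 in TTP-A kept its call in 1 of 8 fits with 1 library left out (adjusted p up to 0.169, without TTP-A 1, by edgeR). In WT-A, Zbtb16 was not called without WT-S 2 (adjusted p = 0.0656) or in 14 libraries without WT-A 3 and WT-A 4. The libraries WT-A 3 and WT-A 4 stood apart: their deviation from the gene medians followed transcript GC content (Spearman rho 0.716 and 0.738 over 11493 genes), against at most 0.302 in size in the other 14. The GC content of the macrophage transcripts ran from 43.4% for Mrc1 to 59.5% for C1qa. The changes of the 9 genes that involve WT-A are therefore given with all 16 libraries and with the 14 others. In the tissue check, the summed level of 10 corpus epithelium genes was 101000 to 226000 CPM (counts scaled to a common library size). The sum of 8 squamous forestomach genes was 1.19 to 221 CPM in WT-S and 49.2 to 918 in WT-A, with all 8 above 0 in log2 fold change and 1, Krt6b, called (median 3.09). That call was lost in 3 of 8 fits with 1 library left out (adjusted p up to 0.0784 by edgeR, without WT-S 2). The count ran from 0 without WT-A 2 to 4 without WT-A 1, and 5 of the 8 had an unadjusted p under 0.05. The squamous sum was 27.4 to 426 CPM in TTP-S, against 2.11 to 238 in TTP-A (median −0.39), with 0 called by edgeR or DESeq2 and 0 with an unadjusted p under 0.05. None of 6 exocrine pancreas genes passed the low-count filter.

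RefSeq promoter windows (GRCm38.p6, the same assembly as mm10) were at hand for 6 of the 9 genes. The windows below cover the 250 bases before the RefSeq start site, in the direction of transcription, and are shown for Cd68, whose level moved apart from the other genes, and for C1qb and C1qc, whose levels moved together. Capitals mark the core GAGGAA bound by PU.1, the ETS factor of myeloid cells (TTCCTC on the other strand), and the AP-1 motif TGANTCA, each searched on both strands. The RefSeq start site of C1qc lies inside the gene as GENCODE annotates it, so most of the C1qc window, on the side of that start site, is within the annotated gene.
Cd68, chr11:69666171-69666420, minus strand: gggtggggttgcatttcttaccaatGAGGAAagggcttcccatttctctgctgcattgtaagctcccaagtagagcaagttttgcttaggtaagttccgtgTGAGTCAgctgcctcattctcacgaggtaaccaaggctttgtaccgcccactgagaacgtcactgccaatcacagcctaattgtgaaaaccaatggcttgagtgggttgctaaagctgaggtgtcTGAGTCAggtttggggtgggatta
C1qb, chr4:136886201-136886450, minus strand: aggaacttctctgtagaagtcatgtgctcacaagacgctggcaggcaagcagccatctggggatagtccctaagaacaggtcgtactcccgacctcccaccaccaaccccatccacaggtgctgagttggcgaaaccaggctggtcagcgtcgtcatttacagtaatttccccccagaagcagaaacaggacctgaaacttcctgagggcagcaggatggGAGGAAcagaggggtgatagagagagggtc
C1qc, chr4:136892915-136893164, minus strand: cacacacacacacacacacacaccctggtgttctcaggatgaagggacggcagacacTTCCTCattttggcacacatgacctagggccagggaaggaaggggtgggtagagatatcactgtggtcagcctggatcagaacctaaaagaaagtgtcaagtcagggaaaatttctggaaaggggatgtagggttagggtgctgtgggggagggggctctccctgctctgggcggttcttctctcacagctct

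The letters GAGGAA stood in 5 of the 6 windows (Cd68, C1qb, C1qc, Mrc1 and Itgam, not Cx3cr1), and in 23.3% of 32851 promoter windows of that length. The Cx3cr1 window (chr9:120068297-120068546, minus strand) lay wholly within the gene as GENCODE annotates it. TGANTCA stood in 1 of the 6, that of Cd68, where it occurred at 2 places, with first bases at −149 and −24 from the start site. It stood in 6.75% of all windows. A match of letters is a description and not a binding site.

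Per kilobase of transcript, C1qa and C1qb were the most abundant of the 9 genes in every group, followed by C1qc and Cd68, and Itgam was the least abundant. In WT-S the mean level was 35.1 ± 3.23 CPM per kilobase for C1qa (SD, n = 4), 23.5 ± 4.37 for C1qb, 13.1 ± 0.87 for C1qc, 11.5 ± 1.66 for Cd68 and 4.14 ± 0.64 for Csf1r. Below these stood Cx3cr1 at 2.02 ± 0.48 CPM per kilobase, Mrc1 at 1.84 ± 0.44, Adgre1 at 1.57 ± 0.22 and Itgam at 0.817 ± 0.19. The libraries of C1qc and Cd68 overlapped, as did those of Cx3cr1 and Mrc1, and of Mrc1 and Adgre1, and the other neighbours in that order did not overlap. Cd68 ranked below C1qc in WT-S and above it in the other 3 groups, with overlapping libraries each time. Csf1r kept its place between the gene above and the gene below, without overlap, in all 4 groups. The plot of CPM by library shows all 9 genes.

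**Figure D1:**
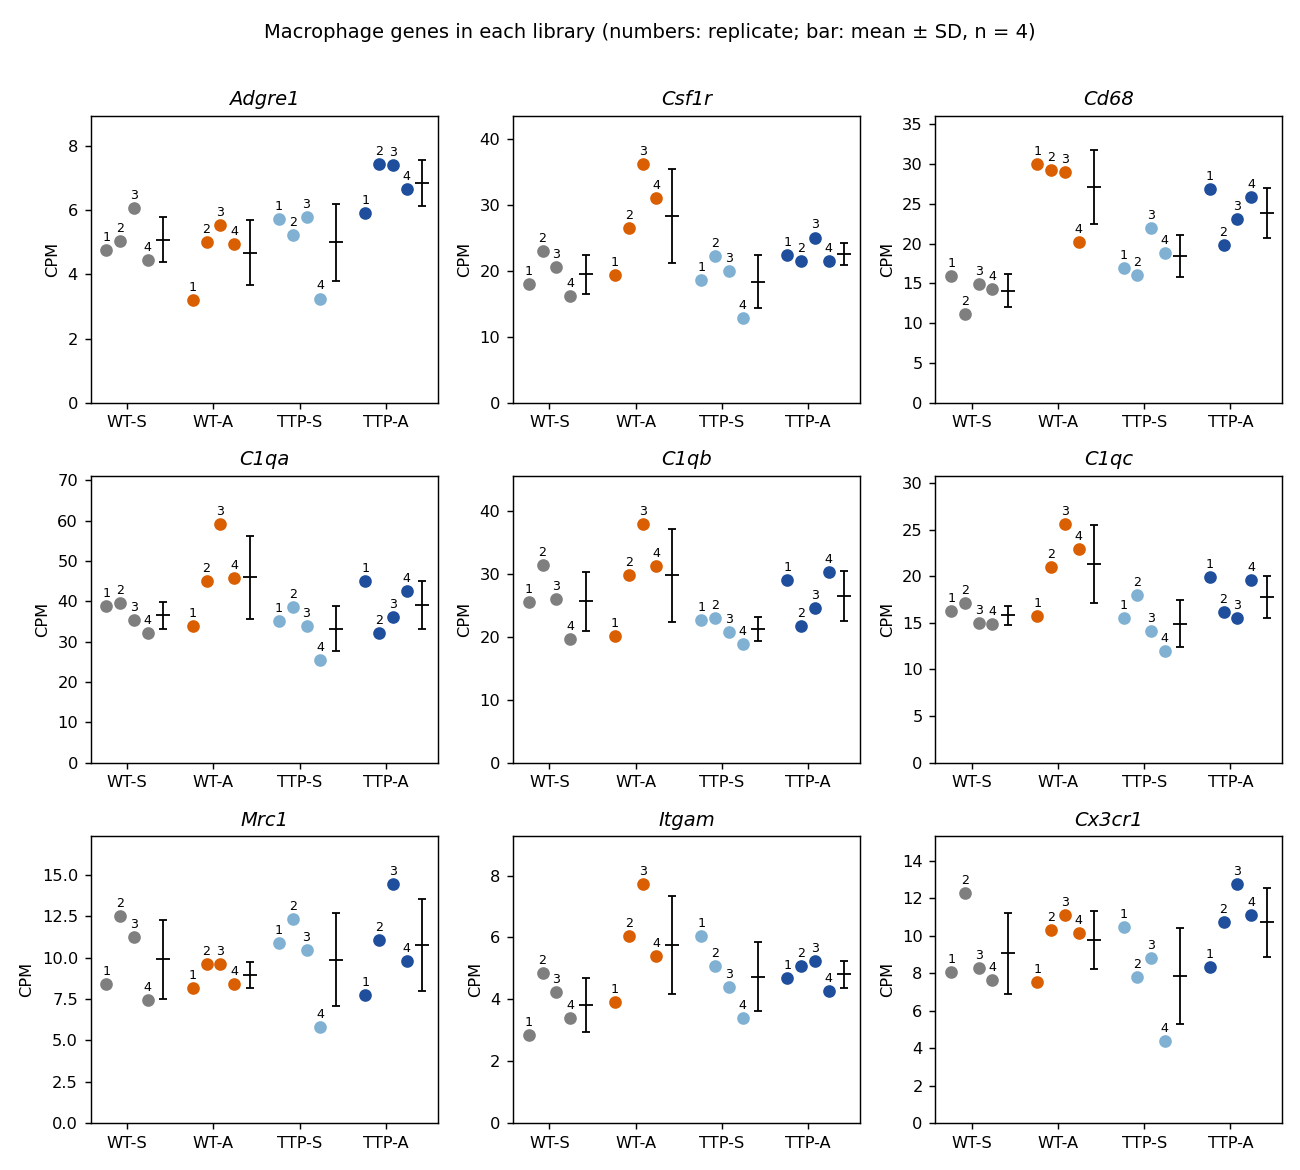
CPM of each of the 9 macrophage genes in each library (1 panel a gene; points, libraries with their replicate numbers; bars, mean ± SD of 4 libraries; x axis, group). The WT-A libraries of Cd68 sit between 20.22 and 30.03 CPM, above all 4 WT-S libraries, and TTP-S 4 is the lowest TTP-S library in 8 of the 9 panels.

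Cd68 rose in condition A in wild-type mice, from 14.1 ± 2.04 CPM in WT-S to 27.1 ± 4.63 CPM in WT-A (SD, n = 4 each). The gene (chr11:69664213-69666153 on mm10, minus strand, 6 exons) encodes a lysosome-associated glycoprotein. WT-S libraries 1 to 4 gave 15.95, 11.20, 14.88 and 14.33 CPM. WT-A libraries 1 to 4 gave 30.03, 29.29, 28.98 and 20.22 CPM. Every WT-A library was above every WT-S library, and 9.2% of all genes tested were higher in WT-A without overlap. The log2 fold change was 0.95 (SE 0.14, 1.93-fold, adjusted p = 0.00147 by edgeR), and the exact two-sided permutation test of the 8 libraries gave p = 0.0286, the smallest it can give. It was 1.08 in the 14 libraries (adjusted p = 0.00125). It stayed called when any 1 of the 8 libraries was left out, with a log2 fold change between 0.85 and 1.07.

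In TTPΔARE mice, Cd68 stood at 16.97, 16.10, 21.94 and 18.79 CPM in TTP-S libraries 1 to 4 and at 26.84, 19.86, 23.05 and 25.84 CPM in TTP-A libraries 1 to 4. The groups overlapped, since TTP-S 3 was above TTP-A 2. The log2 fold change was 0.38 (SE 0.14) and was not called (adjusted p = 0.185 by edgeR, exact p = 0.0571). All 4 TTP-S libraries were above all 4 WT-S libraries, as in 3.5% of all genes tested, with a log2 difference of 0.39 that was not called (unadjusted p = 0.0163, adjusted p = 0.50 by edgeR). Within condition A the TTP-A and WT-A libraries overlapped (log2 −0.18, adjusted p = 0.396, and −0.31, adjusted p = 0.234, in the 14 libraries, by edgeR). The change from S to A was smaller in TTPΔARE than in WT by 0.57 on the log2 scale, and that interaction was not called (unadjusted p = 0.0118, adjusted p = 0.224 by edgeR). With the 14 libraries it was −0.70 (adjusted p = 0.136 by edgeR).

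From condition S to A in each genotype, the mean sums of mast cell and eosinophil markers differed in the direction of Cd68, and that of corpus epithelium markers in the opposite direction. Between TTP-S and WT-S, where Cd68 was higher in TTP-S, all 3 went the other way. The summed level of 7 mast cell genes (all tested, none at 0) was 144 to 467 CPM in WT-S and 229 to 661 in WT-A. In TTPΔARE mice it was 142 to 152 CPM in condition S and 191 to 508 in condition A. Among them Mcpt4, a mast cell chymase, was called higher in WT-A, and Mcpt1 and Mcpt2 were called higher in TTP-A. With 1 of the 8 libraries left out in turn, Mcpt4 kept its call in 5 of 8 fits (adjusted p up to 0.0745, without WT-S 2), Mcpt1 in 2 and Mcpt2 in 1 (up to 0.0637 and 0.0958, both without TTP-S 4). Kit averaged 86.0 CPM in WT-S and 85.4 in WT-A, and Ms4a2 4.2 and 3.35, so not all mast cell genes had the direction of the sum. WT-A 4, the lowest WT-A library for Cd68, also had the lowest mast cell sum of that group. The eosinophil list reached 2.84 to 6.66 CPM in WT-S and 3.48 to 8.97 in WT-A, and 2.16 to 3.11 CPM in condition S and 4.16 to 7.83 in condition A of the other genotype. Of its 6 genes only Siglecf was tested. It was not called in WT-A (0.53, adjusted p = 0.195) and was called higher in TTP-A (1.22, adjusted p = 0.0417 by edgeR), a call lost in 7 of 8 fits with 1 library left out (adjusted p up to 0.15, without TTP-A 1). The granule genes Epx and Ear6 were at 0 in every library. Prg2, also on the list, had 0 to 1 counts in WT-S, 1 to 4 in WT-A, 0 in TTP-S and 0 to 1 in TTP-A. Ccr3 averaged 0.067 CPM in WT-S and 0.44 in WT-A, and 0.031 in TTP-S and 0.26 in TTP-A. Il5ra averaged 0.085 and 0.14, and 0.045 and 0.12. The corpus epithelium sum was 149600 to 226000 CPM in WT-S and 101000 to 177700 in WT-A. In TTP-S it was 200500 to 207700 CPM, against 140700 to 200600 in TTP-A. Pgc, which encodes pepsinogen C, made up most of that sum, at 115300 CPM in WT-S. Of the 10 genes tested, Pgc and Gif were called lower in WT-A. Gif kept that call whichever library was left out, and Pgc in 4 of 8 fits (adjusted p up to 0.0767 by edgeR, without WT-S 2). The count ran from 1 without WT-A 3 to 5 without WT-A 4, and 5 were called lower in the 14 libraries. In TTP-A Muc5ac was called lower and Muc6 higher, from 403 to 1757 CPM and so against the sum, and these calls were lost in 6 and 7 of 8 fits with 1 library left out (adjusted p up to 0.0916 and 0.149, both without TTP-A 1, by edgeR). The part of these cell types in the Cd68 result was not tested.

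The C1q genes lie side by side on chromosome 4 of mm10, all on the minus strand with 3 exons each: C1qb at chr4:136880129-136886187, C1qc at chr4:136889804-136893065 and C1qa at chr4:136895917-136898803. C1qc was called higher in WT-A than in WT-S with all libraries, and C1qa and C1qb were not called. WT-S libraries 1 to 4 gave 16.23, 17.09, 15.01 and 14.90 CPM of C1qc, and WT-A libraries 1 to 4 gave 15.70, 20.94, 25.59 and 22.91 CPM. WT-A 1 lay inside the WT-S range and the other 3 WT-A libraries lay above it. The log2 fold change of C1qc was 0.43 (SE 0.14, 1.34-fold, adjusted p = 0.0463 by edgeR, exact permutation p = 0.0857). In the 14 libraries it was 0.22 (adjusted p = 0.381), and it was lost when any 1 library other than WT-A 1 was left out (adjusted p 0.0565 to 0.156).

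C1qa stood at 38.90, 39.48, 35.39 and 32.25 CPM in WT-S libraries 1 to 4 and at 33.92, 44.98, 59.18 and 45.74 CPM in WT-A libraries 1 to 4. The order of the WT-A libraries was that of C1qc, with WT-A 1 inside the WT-S range and WT-A 3 highest. The log2 fold change was 0.33 for C1qa (SE 0.15, adjusted p = 0.133) and 0.22 for C1qb (adjusted p = 0.365), by edgeR. They were 0.12 (adjusted p = 0.693) and −0.035 (adjusted p = 0.926) in the 14 libraries. In TTPΔARE mice the log2 fold changes from S to A were 0.31 for C1qb, 0.25 for C1qc and 0.23 for C1qa, none called (adjusted p 0.415 to 0.550 by edgeR). The C1q chains kept a near-fixed ratio in all groups. The CPM of C1qb relative to C1qa averaged 0.697 ± 0.081 in WT-S and 0.644 ± 0.039 in WT-A, against 0.647 ± 0.064 (TTP-S) and 0.677 ± 0.026 (TTP-A) in TTPΔARE mice, each over 4 libraries with its SD. That of C1qc relative to C1qa averaged 0.434 ± 0.020, 0.465 ± 0.028, 0.448 ± 0.025 and 0.458 ± 0.031 in the same order.

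Csf1r, the receptor on which macrophage survival depends, was called higher in WT-A with all 16 libraries. WT-S libraries 1 to 4 gave 18.08, 23.03, 20.60 and 16.13 CPM, and WT-A libraries 1 to 4 gave 19.38, 26.46, 36.24 and 31.09 CPM. WT-A 1 again lay inside the WT-S range, and WT-A 3 and WT-A 4, the pair that stood apart by GC content, were the highest. The log2 fold change was 0.54 (SE 0.18, 1.45-fold, adjusted p = 0.0463 by edgeR, exact permutation p = 0.0857). In the 14 libraries it was 0.24 (adjusted p = 0.430). The call was lost when any 1 library other than WT-A 1 or WT-A 2 was left out (adjusted p 0.0565 to 0.161, the highest without WT-A 3, where the log2 fold change was 0.39). In TTPΔARE mice Csf1r went from 18.55, 22.23, 19.96 and 12.83 CPM in TTP-S libraries 1 to 4 to 22.35, 21.55, 25.07 and 21.53 CPM in TTP-A libraries 1 to 4, a log2 difference of 0.30 that was not called (adjusted p = 0.480 by edgeR). Exons of Hmgxb3 on the opposite strand overlap 873 exonic bases of Csf1r. Strand use in the counting is not given in the sources used here, so reads from that stretch cannot be told apart.

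Adgre1, which encodes F4/80, was not called in wild-type mice, and its highest levels were in TTP-A. The gene (chr17:57358691-57483527, plus strand, 22 exons) gave 4.758, 5.047, 6.074 and 4.454 CPM in WT-S libraries 1 to 4 and 3.212, 5.002, 5.540 and 4.956 CPM in WT-A libraries 1 to 4. The WT-A libraries spanned most of the WT-S range and WT-A 1 was the lowest of the 16 libraries (log2 −0.12, SE 0.19, adjusted p = 0.657, and −0.31, adjusted p = 0.409, in the 14 libraries, by edgeR). In TTPΔARE mice it gave 5.712, 5.229, 5.781 and 3.246 CPM in TTP-S libraries 1 to 4 and 5.905, 7.440, 7.395 and 6.668 CPM in TTP-A libraries 1 to 4. Every TTP-A library was above every TTP-S library, as in 6.94% of all genes tested, and above every WT-A library, as in 5.99%. The log2 difference of TTP-A from TTP-S was 0.45 (SE 0.19, unadjusted p = 0.0263, adjusted p = 0.226) and that from WT-A was 0.55 (SE 0.18, unadjusted p = 0.00875, adjusted p = 0.0828), by edgeR. Neither was called, and the second had an adjusted p of 0.038 by DESeq2. The interaction was 0.58 (SE 0.26, unadjusted p = 0.0433, adjusted p = 0.316 by edgeR). Without WT-A 3 and WT-A 4 the difference from WT-A was 0.73 (adjusted p = 0.0951) and the interaction 0.76 (adjusted p = 0.273), by edgeR.

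The level of Csf1r relative to Adgre1 differed between the wild-type groups. It averaged 3.84 ± 0.51 in WT-S (3.39 to 4.56) and 6.03 ± 0.54 in WT-A (5.29 to 6.54, SD, n = 4 each), as a ratio of CPM values. It averaged 3.73 ± 0.46 in TTP-S, against 3.33 ± 0.37 in TTP-A. The WT-A range did not overlap the others, and it includes WT-A 1 and WT-A 2. This ratio was picked from several between such genes after the values were seen, and is given without a test. Some others also separated the wild-type groups. C1qa to Adgre1 was 5.83 to 8.18 in WT-S and 8.99 to 10.68 in WT-A, and Mrc1 to Csf1r 0.460 to 0.547 and 0.266 to 0.421. Mrc1 to Adgre1 overlapped, at 1.67 to 2.48 and 1.69 to 2.54. GC content was 54.5% for Csf1r and 47.2% for Adgre1.

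Itgam, the CD11b chain (chr7:128062640-128118491, plus strand, 30 exons), stood at 2.855, 4.835, 4.225 and 3.379 CPM in WT-S libraries 1 to 4 and at 3.898, 6.036, 7.724 and 5.391 CPM in WT-A libraries 1 to 4. The groups overlapped through WT-A 1. The log2 fold change was 0.58 (SE 0.21) and was not called (adjusted p = 0.0643 by edgeR, 0.0426 by DESeq2). It was 0.37 without WT-A 3 and WT-A 4 (adjusted p = 0.332 by edgeR). In TTPΔARE mice the levels were 6.036, 5.064, 4.397 and 3.393 CPM in TTP-S libraries 1 to 4 and 4.678, 5.073, 5.234 and 4.260 CPM in TTP-A libraries 1 to 4. These overlapped throughout (log2 0.02, adjusted p = 0.982 by edgeR). Gm49368 on the same strand shares 3450 exonic bases with Itgam in the annotation and is not a row of the table used here, so the Itgam count depends on how the counting treated that overlap.

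Cx3cr1, the fractalkine receptor (chr9:119901616-120069879, minus strand, 4 exons), stood at 8.061, 12.30, 8.274 and 7.628 CPM in WT-S libraries 1 to 4 and at 7.543, 10.31, 11.12 and 10.17 CPM in WT-A libraries 1 to 4. WT-S 2 was above all WT-A libraries and the groups overlapped (log2 0.11, adjusted p = 0.755, and −0.023, adjusted p = 0.969, in the 14 libraries, by edgeR). In TTPΔARE mice it stood at 10.49, 7.823, 8.794 and 4.377 CPM in TTP-S libraries 1 to 4 and at 8.312, 10.73, 12.77 and 11.11 CPM in TTP-A libraries 1 to 4. The log2 difference was 0.44 with overlapping groups (adjusted p = 0.358 by edgeR).

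Mrc1, the mannose receptor CD206 (chr2:14229392-14332057, plus strand, 29 exons), was the only one of the 9 genes whose annotated 3′ untranslated region held the letters TATTTAT, the core of the TTP binding element. It held them at 2 places, shown here with the core in capitals.
Mrc1 site 1, chr2:14331677-14331703, plus strand: ttgagaactgTATTTATccacatgtag
Mrc1 site 2, chr2:14331859-14331885, plus strand: taaataatgcTATTTATtatctaatta
Of 20949 genes with an annotated 3′ untranslated region, 27.4% held the same letters. Mrc1 stood at 8.397, 12.51, 11.27 and 7.423 CPM in WT-S libraries 1 to 4 and at 8.156, 9.624, 9.636 and 8.391 CPM in WT-A libraries 1 to 4. It stood at 10.90, 12.35, 10.47 and 5.803 CPM in TTP-S libraries 1 to 4 and at 7.767, 11.06, 14.45 and 9.771 CPM in TTP-A libraries 1 to 4. All groups overlapped. The log2 difference from WT-S was −0.15 in WT-A (adjusted p = 0.649, and −0.16, adjusted p = 0.766, in the 14 libraries, by edgeR), and the change from TTP-S to TTP-A was 0.12 (adjusted p = 0.885 by edgeR).

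Read together, 3 of the 9 macrophage genes were called in the comparison of WT-A with WT-S (Cd68, Csf1r and C1qc, all higher), where 18.8% of all genes tested were called and 9.8% were called higher. In the 14 libraries only Cd68 was called, against 10.5% of all genes. DESeq2 called 4 of the 9 with all libraries (Itgam was the other one), against 22.9% of all genes. The median log2 fold change of the 9 genes was 0.33 (0.12 in the 14 libraries), beside 0.0094 over all genes tested, and 7 of the 9 were above 0. In the comparison of TTP-A with TTP-S, 0 of the 9 were called by edgeR, where 2.9% of all genes were called. In that comparison 2 of the 9 (Adgre1 and Cd68) had an unadjusted p under 0.05 (15.9% of all genes), and 0 were called by DESeq2 (5.61% of all genes). All 9 had a log2 fold change above 0, with a median of 0.30 beside −0.001 over all genes. TTP-S 4 was the lowest library of its group for every one of them but Cd68. With that library left out, the log2 fold changes of Mrc1 and Itgam were −0.06 and −0.10, and the count called stayed at 0.

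Tissue markers other than leukocyte genes also differed between these groups. The sum of 6 smooth muscle genes was 5749 to 6561 CPM in WT-S and 6778 to 8288 in WT-A, with 4 of 6 called higher (Acta2, Des, Cnn1 and Actg2, median 0.37; only Actg2 in the 14 libraries). In TTPΔARE mice it was 5011 to 7045 CPM in condition S and 5482 to 6589 in condition A, and 3 of the 6 (Des, Cnn1 and Actg2) were called lower in TTP-A when set against WT-A (0 in the 14 libraries). The sum of 8 endothelial genes was 241 to 273 CPM in WT-S and 241 to 318 in WT-A, with 3 of 8 called higher (Pecam1, Cdh5 and Pdpn; in the 14 libraries only Kdr was called, lower), and 252 to 275 CPM in TTP-S, against 284 to 308 in TTP-A, with 0 called there by edgeR, 2 with an unadjusted p under 0.05 and 2 called by DESeq2 (Pecam1 and Cdh5 were called higher with the spread of the 14 libraries). Kdr was called higher in TTP-A when set against WT-A (0.40, adjusted p = 0.041 by edgeR), a call lost in 4 of 8 fits with 1 library left out (adjusted p up to 0.125, without TTP-A 3). The sum of 6 adipocyte genes was 145 to 175 CPM in WT-S and 144 to 221 in WT-A, with 0 called by edgeR (1 by unadjusted p, 1 by DESeq2). It was 196 to 291 CPM in TTP-S, above the 123 to 176 in TTP-A, with 1 of 6 called lower (Fabp4, −0.68, adjusted p = 0.0208 by edgeR), a call lost in 5 of 8 fits with 1 library left out (adjusted p up to 0.0827, without TTP-S 4). The part of these tissues in the macrophage gene results was not tested.

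The genotypes were compared within each condition, and these comparisons share the 4 groups with those above. In condition S, 0 of the 9 were called by edgeR, where 0.0325% of all genes were called. By unadjusted p under 0.05 there was 1 (Cd68, against 7.49% of all genes), by DESeq2 0 (0.663%), and the median log2 difference was −0.08. In condition A, 0 of the 9 were called by edgeR, where 5.17% of all genes were called. By unadjusted p under 0.05 there was 1 (27.5% of all genes) and by DESeq2 1 (11.5%), both times Adgre1, and the median was −0.18 (−0.018 in the 14 libraries). The interaction called 0 of the 9 by edgeR, where 0.0585% of all genes were called. By unadjusted p under 0.05 there were 2 (Cd68 and Adgre1, with opposite signs, against 15.2% of all genes), and by DESeq2 0 (1.81%).

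**Figure D2:**
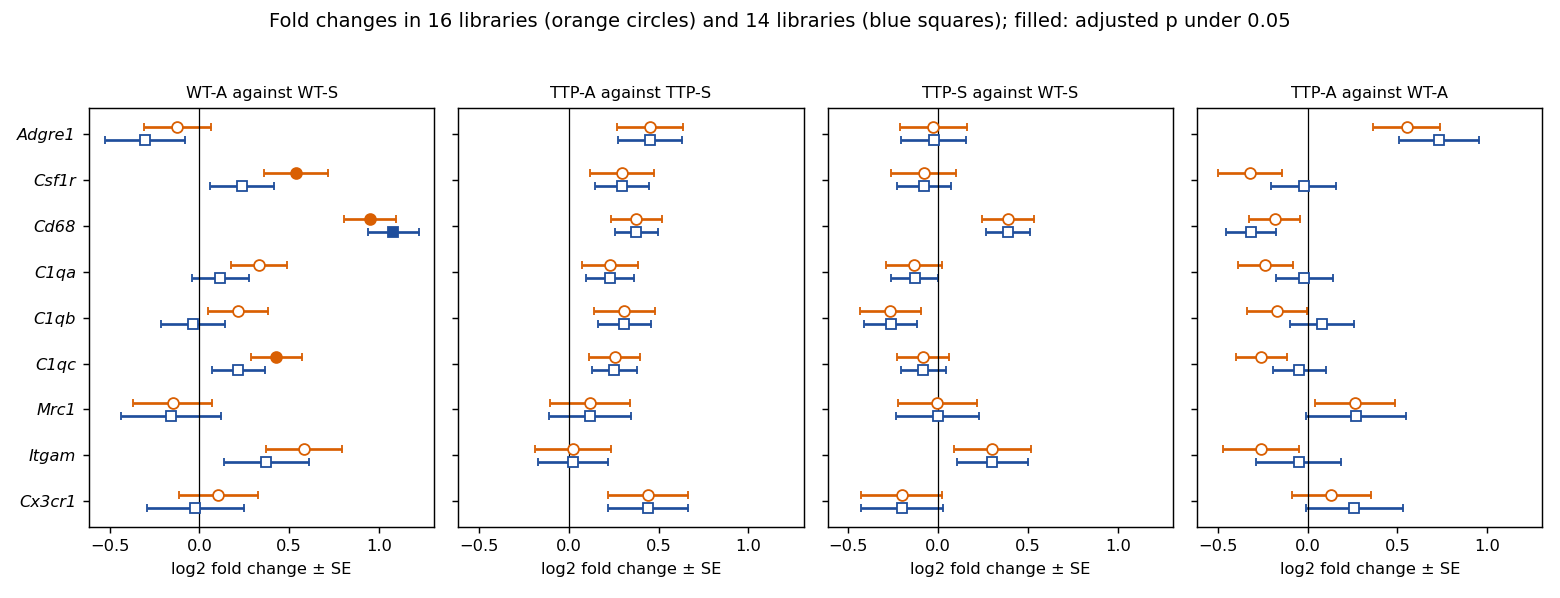
Log2 fold change ± SE of each of the 9 genes in the 4 pairwise comparisons (1 panel each; circles, all 16 libraries; squares, the 14 libraries without WT-A 3 and WT-A 4; filled, adjusted p under 0.05 by edgeR). Cd68 is filled with both sets of libraries in WT-A against WT-S, at 0.95 and 1.08, while Csf1r and C1qc are filled with 16 libraries only.

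Within groups, 8 of the 9 genes moved together from library to library and Cd68 did not. After group means were subtracted, all 28 pairs among the 8 genes had a positive Pearson correlation of log2 CPM over the 16 libraries (0.283 to 0.942, median 0.734). Of the 8 pairs with Cd68, 1 was positive (−0.383 to 0.022, median −0.273). In the 14 libraries the same counts held, 28 of 28 (median 0.695) and 1 of 8 (median −0.231). The closest pairs were C1qa with C1qc at r = 0.942 (Spearman's rho 0.95) and C1qa with C1qb at 0.894 (rho 0.897). Cx3cr1 with Mrc1 reached 0.839 (rho 0.762). Adgre1 with Csf1r reached 0.837 and 0.577 after the 2 libraries farthest from the median of Adgre1 were left out. WT-A 1 was the lowest library of its group for the 8 genes and the highest for Cd68. WT-A 3 was the highest for the 8. Libraries share depth, RNA quality and tissue composition, and the correlations are a description of these 16 libraries.

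**Figure D3:**
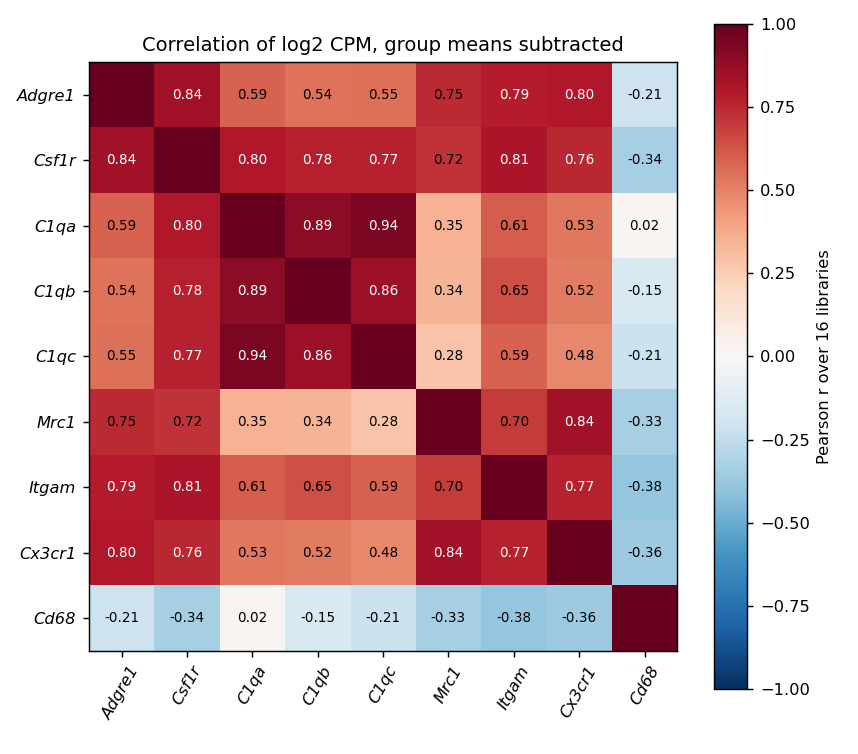
Pearson correlation of log2 CPM between the 9 genes over 16 libraries after subtraction of group means (color scale from negative to positive r). The 28 pairs of the first 8 genes are all positive, and the last row and column, Cd68, run from −0.383 to 0.022.

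Cd68 had r = −0.335 with Csf1r (rho −0.388) and −0.383 with Itgam (rho −0.424) within groups. It varied with the mast cell and eosinophil marker sums and against the epithelial sum. After group means were subtracted, its log2 CPM had r = 0.823 with the mast cell sum (rho 0.806) and 0.842 with the eosinophil sum (rho 0.844), over 16 libraries. With the 2 farthest libraries left out, r was 0.752 and 0.694. It had r = −0.761 with the corpus epithelium sum and −0.781 with the summed glucocorticoid-responsive genes, −0.623 and −0.684 with the 2 farthest libraries left out. The mean of the other 8 genes had r = −0.151 with the mast cell sum and 0.926 with the sum of 20 other macrophage genes, for which Cd68 had −0.184. Apoe averaged 198 CPM in WT-S, where the mean of that 20-gene sum was 422 CPM. With the sum of the activated macrophage genes Cd68 had r = 0.61 and the other 8 genes 0.395, and with the complement sum 0.535 and 0.118. The sum of 8 endothelial genes also followed the 8 genes (r = 0.762), and Cd68 had −0.492 with it. Sums of NK and T cell (0.742), dendritic cell (0.656), resident macrophage (0.613) and neutrophil genes (0.594) followed the 8 genes as well. Cd68 had −0.169, 0.216, −0.533 and −0.0175 with these.

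**Figure D4:**
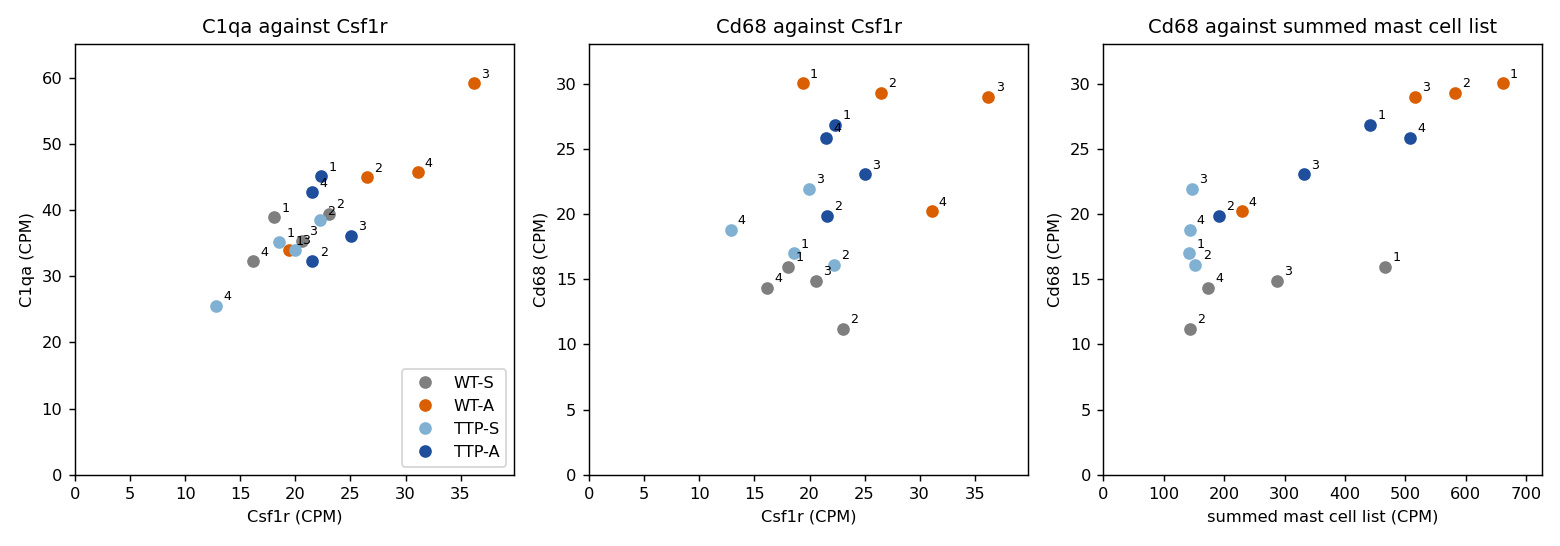
CPM of C1qa against Csf1r, of Cd68 against Csf1r, and of Cd68 against the summed mast cell genes (points, the 16 libraries with their replicate numbers; color, group). C1qa rises with Csf1r, while Cd68 is at 30.03 CPM in WT-A 1, which has the least Csf1r of the WT-A libraries, and at 20.22 CPM in WT-A 4, which has the lowest mast cell sum of that group.

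The genes outside the 9 with the pattern most like their average over the 16 libraries were Itgal (r = 0.883), Slamf7 (0.875), Pld4 (0.875), Plekho2 (0.873), Loxl4 (0.868), H2-DMa (0.866), Ephb3 (0.865), Vsir (0.865), Wdfy4 (0.859), P2ry6 (0.857), Hcls1 (0.856), Hic1 (0.855), Sirpa (0.853), Cd83 (0.849) and Gna12 (0.849). Itgal encodes the CD11a integrin chain, H2-DMa a chaperone of class II antigen presentation and Sirpa the receptor of CD47. After group means were subtracted the first were Bicc1 (0.931), Cyth4 (0.918), Vsir (0.876), Itgal (0.872), Pld4 (0.868) and H2-DMa (0.868), followed by Slamf7 (0.854), Wipf1 (0.854), Nfam1 (0.853), Zbtb42 (0.845), Pdgfra (0.843), Add2 (0.839), Vamp1 (0.839), Mrc2 (0.838) and C1s1 (0.838). The genes most like Cd68 alone, looked up after its pattern was seen, were others. The 3 with the highest r were Hcn2 (0.936), Krt79 (0.936) and Muc4 (0.921) over all libraries, and the mast cell tryptase Tpsg1 (0.899), Strip2 (0.896) and Sctr (0.891) within groups.

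Other genes of the same pathways were read from lists, whose counts stand beside 18.8% of all genes called in WT-A (9.8% higher; 10.5% in the 14 libraries) and 2.9% in TTP-A. Of the 11 tested ligands, receptors and transcription factors around CSF1R, 5 rose and 1 fell in WT-A relative to WT-S by edgeR (median 0.32, beside 0.0094 over all genes), and 4 and 0 in the 14 libraries. The ligand Csf1 was at 22.7 CPM in WT-S and 24.7 in WT-A (log2 0.11, adjusted p = 0.610), and Il34 had a log2 difference of 0.06 (adjusted p = 0.836), by edgeR. They were −0.14 and −0.12 in the 14 libraries (adjusted p = 0.626 and 0.767). The genes for the chains of the GM-CSF receptor were called higher. Csf2ra went from 11.1 ± 0.35 to 20.6 ± 2.75 CPM (log2 0.89, SE 0.14, adjusted p = 0.00147) and Csf2rb from 8.55 ± 2.97 to 18.5 ± 3.70 CPM (log2 1.12, SE 0.26, adjusted p = 0.0102). Spi1, which encodes PU.1, went from 3.05 ± 0.31 to 6.73 ± 1.39 CPM (log2 1.14, SE 0.20, adjusted p = 0.0027), and Cebpb rose by 0.48 (adjusted p = 0.00815). These 4 genes were called in the 14 libraries and whichever library was left out. Irf8 (0.45, adjusted p = 0.029) and Maf (−0.61, adjusted p = 0.0209), which encode lineage transcription factors, were not called in the 14 libraries. All values are from edgeR.

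In TTPΔARE mice 2 of those 11 genes were called higher in condition A (median 0.12), Csf2rb by 1.25 (SE 0.27, adjusted p = 0.0237) and Csf2ra by 0.54 (SE 0.14, adjusted p = 0.0485). Both kept the call when TTP-A 2 or TTP-A 3 was left out and lost it without any other 1 of the 8 libraries (adjusted p up to 0.0981 and 0.191, both without TTP-A 1). Spi1 had a log2 difference of 0.67 (adjusted p = 0.0827; called with the spread of the 14 libraries, adjusted p = 0.0462, which made 3 of the 11) and Csf1 one of 0.04 (adjusted p = 0.958). In condition A, Cebpb was lower in TTPΔARE than in WT by 0.68 on the log2 scale (SE 0.11, adjusted p = 0.00786), with 16 and with 14 libraries (adjusted p = 0.0195) and whichever library was left out. Its interaction was not called (adjusted p = 0.199). Csf2ra had a log2 difference of −0.59 there (adjusted p = 0.0266), which was not called in the 14 libraries (adjusted p = 0.0688) or without TTP-A 2, TTP-A 3 or WT-A 3 (adjusted p up to 0.092). All values are from edgeR.

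Among 6 partners and ligands of CX3CR1 and CD11b, 3 were called higher in WT-A (median 0.50) and 1 of them in the 14 libraries. That was Itgax, the CD11c integrin chain, which went from 6.70 ± 1.71 to 19.1 ± 6.04 CPM (log2 1.51, SE 0.30, adjusted p = 0.005). Itgax was also the 1 gene of the list called in TTP-A (log2 1.43, SE 0.31, adjusted p = 0.0245), a call kept only when TTP-A 2 or TTP-A 3 was the library left out (adjusted p up to 0.101, without TTP-A 1). With the spread of the 14 libraries 3 of the 6 were called in TTP-A, Itgax, Itgal (0.65, adjusted p = 0.0215) and Icam1 (0.41, adjusted p = 0.0318), and DESeq2 called 2. Itgb2, the CD18 partner of CD11b, had a log2 fold change of 0.71 in WT-A (adjusted p = 0.0246), which was not called in the 14 libraries (0.59, adjusted p = 0.0843). Icam1, a ligand of these integrins, was called with 16 libraries (0.51, adjusted p = 0.0114) and not with 14. Fractalkine itself, Cx3cl1, had a log2 difference of 0.29 in WT-A (adjusted p = 0.065; 0.13, adjusted p = 0.497, in the 14 libraries) and −0.01 in TTP-A (adjusted p = 0.978). All values are from edgeR.

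Of 14 tested complement genes outside C1q, 3 (C1ra, Cfb and Masp1) were called higher in WT-A (median 0.24) and 0 lower, a share near that of all genes called. Cfb, factor B of the alternative pathway, went from 15.1 to 24.9 CPM (log2 0.72, SE 0.16, adjusted p = 0.00896) and was called in the 14 libraries as well. C1ra, a protease that binds C1q, had a log2 fold change of 0.48 (adjusted p = 0.0107), and Masp1, a protease of the lectin pathway, one of 1.18 (adjusted p = 0.0219). Neither was called in the 14 libraries. In TTPΔARE mice 0 of the 14 were called by edgeR (median 0.23), 2 had an unadjusted p under 0.05 (15.9% of all genes did) and 1 was called by DESeq2. With the spread of the 14 libraries edgeR called 1, Cd93 (0.36, adjusted p = 0.0428), and the count reached 2 without TTP-A 2.

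Of 20 other macrophage genes, 9 were called higher in WT-A and 0 lower (median 0.50). The count was 3 higher and 1 lower (Apoe) in the 14 libraries, and 2 without WT-A 3. Fcgr2b, the inhibitory IgG receptor, went from 5.70 to 10.2 CPM (log2 0.84, SE 0.17, adjusted p = 0.0051) and Lgmn, a lysosomal protease, from 59.4 to 77.0 CPM (log2 0.37, SE 0.07, adjusted p = 0.00399). Both were called in the 14 libraries, as was Ctss, the cysteine protease cathepsin S (log2 0.70, adjusted p = 0.0152). The others called with 16 libraries only were Fcgr3, Fcer1g, Laptm5, Trem2, Cd14 and Cd300a, at log2 fold changes of 0.55 to 0.88. In TTPΔARE mice 1 of the 20 was called, Laptm5, a lysosomal membrane protein (0.76, adjusted p = 0.0334), and the median was 0.44. That call was kept only when TTP-A 2 was the library left out. In that comparison 12 of the 20 had an unadjusted p under 0.05 (15.9% of all genes did) and DESeq2 called 5. With the spread taken from the 14 libraries, 4 were called higher (Ctss, Fcer1g, Laptm5 and Cd53) and 1 lower (Mertk), where 6.33% of all genes were called. All values not credited to DESeq2 are from edgeR.

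Of 9 tested genes of resident macrophages, 0 were called by edgeR in WT-A (median 0.20), or 4 without WT-A 1, 3 had an unadjusted p under 0.05 (36.5% of all genes did) and 2 were called by DESeq2. The median was −0.11 in the 14 libraries, where Stab1, a scavenger receptor, was called lower (−0.51, adjusted p = 0.0437 by edgeR). In TTPΔARE mice 1 was called, and it fell. Cd163, the haemoglobin scavenger receptor, went from 6.84 ± 1.18 CPM in TTP-S to 3.0 ± 0.81 CPM in TTP-A (log2 −1.19, SE 0.23, adjusted p = 0.0154 by edgeR). It was not called when TTP-S 2, TTP-A 1 or TTP-A 4 was left out (adjusted p up to 0.0641). In wild-type mice its log2 difference was −0.31 (adjusted p = 0.336), and the interaction was −0.88 (unadjusted p = 0.0154, adjusted p = 0.240 by edgeR). Of 9 tested monocyte genes, Fn1, fibronectin, was called higher in WT-A (0.66, adjusted p = 0.00537), and in the 14 libraries Fn1 (0.46, adjusted p = 0.0306) and Ccr2 (1.0, adjusted p = 0.0315) were, all by edgeR. In WT-A 7 of the 9 were above 0 in log2 fold change. Plac8 averaged 62.8 CPM in WT-S and 55.9 in WT-A, and Ly6c2 0.86 and 0.82, so not all monocyte genes had that direction. Plac8 was called lower in TTP-A (−0.54, adjusted p = 0.0181, lost without any 1 of 3 libraries, most without TTP-A 4, adjusted p = 0.073). With the spread of the 14 libraries, Fn1 (0.48, adjusted p = 0.0167) and Ccr2 (1.02, adjusted p = 0.0282) were called higher in TTP-A as well, by edgeR.

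Of 10 tested genes induced in activated macrophages, 4 were called higher in WT-A (median 0.88; 4 and 0.85 in the 14 libraries) and 3 in TTP-A (median 1.03). Mgl2, a galactose-type lectin, was called in both genotypes, in the 14 libraries and whichever library was left out. It went from 6.07 ± 1.64 to 12.6 ± 2.80 CPM in WT (log2 1.06, SE 0.20, adjusted p = 0.0041) and from 4.32 ± 0.86 to 10.4 ± 1.72 CPM in TTPΔARE mice (log2 1.27, SE 0.21, adjusted p = 0.00633). The others were Tnf, Retnla and Ccl24 in WT-A and Nos2 and Ccl24 in TTP-A. Counts of some were low in condition S. Tnf had 2 to 3 counts in the WT-S libraries and 11 to 24 in WT-A. Ccl24 had 2 to 17 counts in WT-S and 66 to 219 in WT-A, and 2 to 6 in TTP-S and 7 to 44 in TTP-A. With 1 of the 8 libraries left out in turn, Retnla kept its call in 4 of 8 fits (adjusted p up to 0.06, without WT-A 3) and Ccl24 in TTP-A in 1 (adjusted p up to 0.119, without TTP-A 1). Ccl24 was also called lower in TTP-A when compared with WT-A, with 1.22 ± 0.70 CPM against 5.03 ± 2.45 (SD, n = 4 each; adjusted p = 0.0289 by edgeR). That call was lost in 4 of 8 such fits (adjusted p up to 0.104, without WT-A 3) and in the 14 libraries (adjusted p = 0.0733). Nos2, the inducible nitric oxide synthase, had a log2 fold change of 1.48 in TTP-A (adjusted p = 0.0245, lost without TTP-A 1 and 5 other libraries). Between TTP-S and WT-S, 0 genes of any of these lists were called by edgeR. There 0 to 3 genes of each list had an unadjusted p under 0.05, and DESeq2 called 1, in the resident macrophage list.

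**Figure D5:**
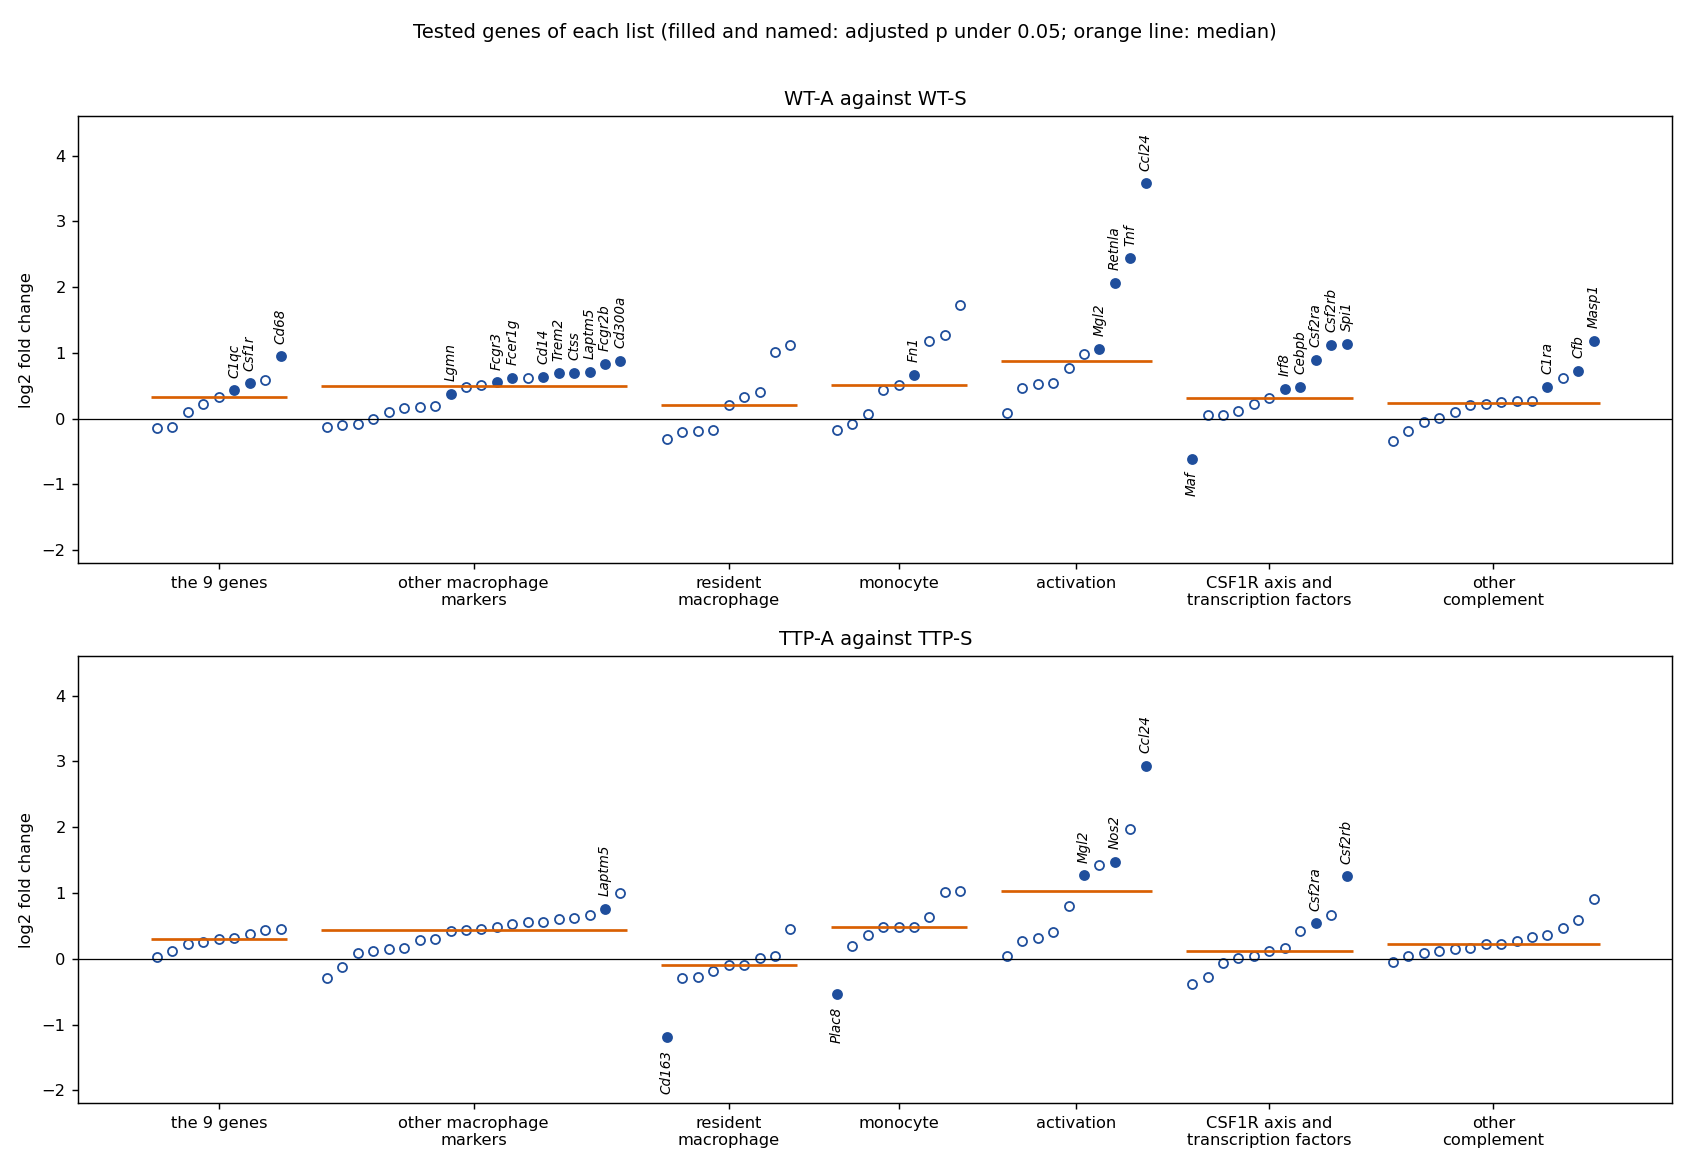
Log2 fold change of each tested gene of the 9 macrophage genes and of 6 related lists, in WT-A against WT-S and TTP-A against TTP-S (points, genes; filled and named, adjusted p under 0.05 by edgeR over 16 libraries; lines, list medians). The medians of the 9 genes are 0.33 and 0.30, and those of the activation genes are 0.88 and 1.03.

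Markers of several other leukocytes were also called in WT-A. Of 7 tested dendritic cell genes 3 were called higher, Cd209a (1.56, adjusted p = 0.00188), Batf3 (1.84, adjusted p = 0.00379) and Ccr7 (1.38, adjusted p = 0.0355), by edgeR, and Ccr7 was not called in the 14 libraries and lost its call in 6 of 8 fits with 1 library left out. In TTP-A 6 of the 7 were above 0 (median 0.68), with 0 called by edgeR, 5 with an unadjusted p under 0.05 and 1 called by DESeq2 (1 by edgeR with the spread of the 14 libraries). Cd209a was called lower in TTP-A when set against WT-A (−0.95, adjusted p = 0.0358 by edgeR), which was lost in 5 of 8 such fits (adjusted p up to 0.122, without WT-A 3) and in the 14 libraries. Both of the tested neutrophil genes, Csf3r and Retnlg, were called higher. Csf3r lost its call in the 14 libraries, and Retnlg in 4 of 8 fits with 1 library left out (adjusted p up to 0.0709, without WT-A 3), with 0 to 4 counts in the WT-S libraries. The summed level of the 8 neutrophil genes listed was 1.23 to 2.18 CPM in WT-S and 2.85 to 6.20 in WT-A. The other genes of that list did not pass the low-count filter. S100a8 averaged 0.13 CPM in WT-S and 0.099 in WT-A, and Mpo 0.053 and 0.009. S100a9 averaged 0.16 and 0.39, and Cxcr2 0.036 and 0.28. Ly6g and Elane had at most 1 count in any library. Of 2 tested B and plasma cell genes, Cd79b was called higher (1.44, adjusted p = 0.0395) and Jchain lower (−1.94, adjusted p = 0.0354), by edgeR, and neither in the 14 libraries. Of 2 tested NK and T cell genes 0 were called by edgeR, and 0 by unadjusted p or by DESeq2. Of 4 pan-leukocyte genes 2 were called higher in WT-A (Coro1a and Arhgdib) and Lcp1 lower. With the 14 libraries, Ptprc was called higher in place of those, and Lcp1 lower. In TTP-A 3 of the 4 were called higher, among them Ptprc (CD45), by 1.01 (adjusted p = 0.0227 by edgeR), which was lost without any 1 of 5 libraries. Coro1a and Arhgdib each lost that call in 7 of 8 such fits, and without TTP-A 1 the count was 0 of 4. Their part in the macrophage gene results was not tested.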

How the data were processed

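The authors' deposited table holds whole-number counts per gene symbol for all 16 libraries, not normalized. Per the submitters' processing notes, STAR 2.7.0f, featureCounts, Subread 1.6.4, DESeq2 and mm10 were used, and annotation and strandedness are not given in the sources used here. Counts were scaled by TMM and tested with edgeR 4.0.16 (R 4.3.3, limma 3.58.1): filterByExpr, quasi-likelihood test, 1 mean per group over all 16 libraries, Benjamini-Hochberg over 15385 genes. "Called" means an adjusted p under 0.05. CPM values use TMM-scaled library sizes, log2 CPM a prior count of 2, and the exact two-sided permutation test the 70 splits of 4 against 4. The steps were tested on simulated data. No pair of libraries within a group was a duplicate (chi-square per degree of freedom 4.69 to 89.5). Alternatives were RLE scaling, no filter, DESeq2 1.42.0, a fit of only the groups compared, a replicate block, each library left out, WT-A 3 and WT-A 4 left out, and, added after seeing the data, offsets for GC content. All 9 genes are named. Genes of the other lists are named where called in a result given here or where a result needs them, and likeness to the average of the 9 genes names the 15 genes of highest r with mean CPM of at least 1. The members and lists were chosen with earlier results of these data known, and 1 gene of the activation list is not reported here. Promoter windows are from RefSeq and gene models from GENCODE on the mm10 assembly.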

Additional observations from a re-analysis of the deposited data

Results flagged for a closer look

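Among 36 sets of 4 libraries (9 genes in 4 groups), 2 had a library set apart from the other 3 by Dixon's test at the 95% level. Chance gives about 1 in 20 such sets. Cd68 was at 20.22 CPM in WT-A 4, below the nearest WT-A library at 28.98 CPM (gap over range 0.894), and its call in WT-A against WT-S held with and without that library. Cx3cr1 was at 12.3 CPM in WT-S 2, above the nearest WT-S library at 8.274 CPM (gap over range 0.862).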

How the results depend on the processing

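The count of the 9 genes called in WT-A against WT-S was 3, and it became 1 with no filter on low counts, 1 in the 14 libraries, 1 with only the groups compared and 1 with GC offsets, Cd68 each time. It ran from 1 to 5 with each library left out (5 without WT-A 1; 1 without WT-A 3, WT-A 4 or any WT-S library). It was 3 with RLE scaling, 4 with DESeq2 and 2 with the replicate block. In TTP-A against WT-A it was 0, 1 with DESeq2, and 0 to 2 with each library left out (2 without WT-A 1, Csf1r and C1qc, lower). In the other comparisons it stayed at 0. Same-numbered libraries correlated at −0.43 to 0.444, over 0.1 in 5 of 24 pairs, and 4 of 16 libraries correlated best with their own number, so the replicate block uses a shared number only. In it C1qc in WT-A against WT-S had an adjusted p of 0.0699 by edgeR. The counts of all genes called moved by over 1.5 times under some settings. From 2891 in WT-A against WT-S they went to 1617 in the 14 libraries and 612 with only the groups compared. From 446 in TTP-A against TTP-S they went to 863 with DESeq2, 974 in the 14 libraries, 1132 with only the groups compared and 761 with GC offsets. From 5 in TTP-S against WT-S they went to 100, 65, 42 and 29 in the same order. From 796 in TTP-A against WT-A they went to 1636, 279 and 1 under the first 3 of these. From 9 for the interaction they went to 262 with DESeq2, 44 in the 14 libraries, 24 with GC offsets and 4 with the replicate block. Some small log2 differences that were not called changed sign. In the 14 libraries these were C1qb (−0.035) and Cx3cr1 (−0.023) in WT-A against WT-S, C1qb in TTP-A against WT-A (0.079), and Csf1r (0.059), C1qa (0.11) and C1qc (0.037) in the interaction. With GC offsets they were Mrc1 in WT-A against WT-S (0.083) and C1qa in the interaction (0.043), and with the replicate block Mrc1 in TTP-S against WT-S (6.9e-05). With each library left out, Adgre1 ran from −0.22 to 0.021 in WT-A against WT-S. Mrc1 ran from −0.064 to 0.25 and Itgam from −0.10 to 0.16 in TTP-A against TTP-S. In TTP-S against WT-S, Adgre1 ran from −0.10 to 0.13, Csf1r from −0.19 to 0.056, C1qc from −0.19 to 0.0068 and Mrc1 from −0.13 to 0.18. In the interaction C1qa ran from −0.22 to 0.043 and C1qb from −0.055 to 0.23. The causes were not tested. Depth limits Itgam most, at 51 counts in its lowest library.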
